A study of Mus musculus with 12 samples.

Results

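Chromatin regulator genes other than the subunits of the NuRD complex and the PHF family were examined in mouse cells of pre-B acute lymphoblastic leukemia, a cancer of antibody-producing cell precursors, in which the X-linked chromatin gene Phf6 was silenced or disrupted. Members were chosen by symbol alone from the deposited gene table: the Smarc, Arid1 to Arid5, Kdm1 to Kdm7, numbered Hdac, Sirt1 to Sirt7, Setd, numbered Brd, Cbx1 to Cbx8, Ezh1, Ezh2 and Ing1 to Ing5 genes, with Suz12, Eed, Jarid2, Dnmt1, Dnmt3a, Dnmt3b and Tet1 to Tet3. Kdm5d, Hdac1 and Hdac2 were left out. This gave 96 of the 23224 genes in the table, of which 91 passed the low-count filter that left 12335 genes for testing.

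RNA was sequenced from 4 groups of 3 libraries, and all groups were C57BL/6J pre-B leukemia cells that overexpress BCR-ABL1, the fusion kinase that drives this leukemia, and lack p19, the ARF tumour suppressor made from Cdkn2a. The KD group carried a short hairpin RNA against Phf6. The KO_sg4 and KO_sg1 groups are labelled Phf6 null and were made with 1 of 2 guide RNAs. The WT group had wild-type Phf6. The labels do not say whether a group is 1 clone or a pool, nor whether WT carried a control hairpin or guide. They also do not say whether replicates were separate cultures, so the spread behind each p-value may be technical.

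Levels are given in CPM, read counts relative to the depth of the library, adjusted between libraries by the trimmed mean of M-values (TMM). CPM is not adjusted for transcript length, so it orders libraries for 1 gene and does not rank genes. A gene was called higher or lower at an adjusted p below 0.05 over all 12335 genes, in edgeR's quasi-likelihood test. Fitted log2 fold changes of single genes stand with their standard error after ±.

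Chromatin regulators set how tightly DNA is packed and which genes can be read. SWI/SNF complexes slide or evict nucleosomes at the cost of ATP, Polycomb complexes place and read repressive histone marks, and further families add or remove methyl and acetyl groups on histones or methyl groups on DNA. In B-cell precursors several of these genes, among them Ezh2 and Smarca4, are known to be needed for antibody gene rearrangement and for the growth of the pre-B pool.

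Library totals ran from 20382328 to 36032369 estimated counts, TMM factors from 0.88 to 1.14, and the members together took 0.664% to 0.885% of the counts of a library. Phf6 stood at 8.29 to 9.08 CPM in KD, 29.5 to 44.3 CPM in KO_sg4, 3.23 to 3.74 CPM in KO_sg1 and 33.9 to 35.3 CPM in WT, so the mRNA of the library group labelled KO_sg4 was not lowered. B-lineage markers were present in all groups, with summed levels of 15370 to 15930 CPM in KD and 5332 to 7329 CPM over the other libraries. Myeloid markers summed to 106 to 109.1 CPM in KD, 11.15 to 13.15 CPM in KO_sg4, 9.483 to 10.92 CPM in KO_sg1 and 35.43 to 38.12 CPM in WT, with Cebpa and S100a8 at 0 in every library. T-cell markers summed to at most 2.188 CPM in any library. A list of 15 proliferation genes summed to 3382 to 3454 CPM in KD, 5620 to 6056 CPM in KO_sg4, 5440 to 5891 CPM in KO_sg1 and 5245 to 5303 CPM in WT. In bulk RNA, fewer cells of a type and less RNA per cell cannot be told apart, which holds for every level below. The Y-linked genes Kdm5d and Uty were at or near 0 in all 6 knockout libraries and present in KD and WT. The labels do not say whether these lines share an animal of origin, so in the knockout comparisons the loss of Phf6 and a difference in origin between lines cannot be told apart.

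The median chromatin regulator moved less than the median gene in each comparison with WT. Against WT, 25 members were called higher in KD, 27.5% of those tested against a background of 37.2% over all genes, and 41 were called lower, 45.1% against a background of 40.4%. In KO_sg4, 15 members were higher, 16.5% against 18%, and 15 were lower, 16.5% against 22%. In KO_sg1, 7 members were higher, 7.69% against 16.9%, and 18 were lower, 19.8% against 21.9%. The median log2 fold change was -0.10 over the members and -0.01 over all genes in KD, 0.03 over the members and 0.00 over all genes in KO_sg4, and -0.07 over the members and -0.02 over all genes in KO_sg1. Without regard to sign, the median member moved by 0.30 in KD, 0.157 in KO_sg4 and 0.13 in KO_sg1 on the log2 scale, where the median gene moved by 0.651 in KD, 0.21 in KO_sg4 and 0.213 in KO_sg1. Changes of at least 2-fold in KD were called for 3 members upward (3.3%, against 18.9% of all genes) and 4 downward (4.4%, against 7.83%). These 3 comparisons share the WT libraries.

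The direct comparisons split the members in another way. Between KD and the equal-weight mean of both knockouts, 36 members were higher in KD, 39.6% against a background of 42.9%, and 34 were lower, 37.4% against 40.4%. Between the guides, 21 members were higher in KO_sg4, 23.1% against a background of 13.8%, and 5 were lower, 5.49% against 13.4%. Fitted on the guide libraries alone, 5 of 89 members were higher and 2 lower, where 6.83% of all genes were higher and 7.07% lower.

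The balance of higher and lower calls depended on the scaling. Scaling by library totals alone moved the median of all genes to 0.21 in KD against WT, 0.29 in KD against KO, 0.13 in KO_sg4 against KO_sg1 and -0.10 in KO_sg1 against WT. The members then split into 37 higher and 21 lower in KD, 19 and 11 in KO_sg4, 4 and 22 in KO_sg1, 47 and 24 in KD against KO, and 35 and 3 between the guides. Over all genes, 45.4% were then called higher and 30.6% lower in KD, so the members' 37 and 21 of 91 lay below the background in both directions. The background of the guide comparison became 23% higher and 8.54% lower. It became 18.9% and 19.3% in KO_sg4, 10.7% and 25% in KO_sg1, and 51.5% and 30.6% in KD against KO. With size factors by relative log expression the split was 11 higher and 15 lower in KO_sg1, and 21 and 14 in KO_sg4. The backgrounds were then 21.6% and 19.5% in KO_sg1, and 20.1% and 20.5% in KO_sg4. The guide comparison also leaned on single libraries: without KO_sg4 replicate 2 it gave 33 higher and 11 lower members, against backgrounds of 21.5% and 20.9%. Without KO_sg1 replicate 1 or KO_sg1 replicate 3 it gave 13 or 11 higher members, against backgrounds of 9.57% or 8.93%.

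**Figure D1:**
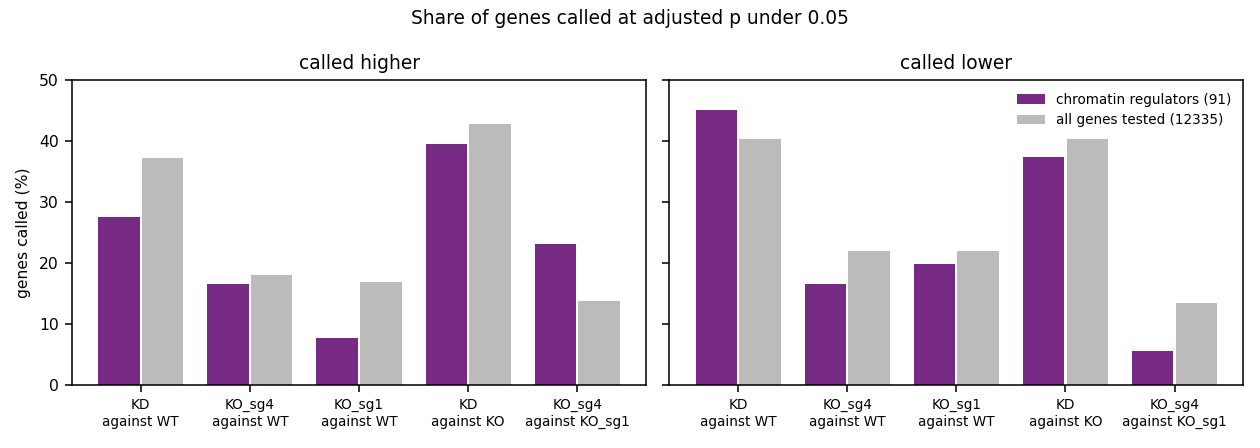
Share of genes called higher (left) and lower (right) in each comparison, in percent of the genes tested, for the 91 chromatin regulators (purple) and all 12335 genes (grey). In KD the members reach 27.5% higher and 45.1% lower under TMM scaling, a split that turns to 37 higher and 21 lower members with library totals alone, where 45.4% and 30.6% of all genes are called. The guide comparison is the one where the members' share of higher calls, 23.1%, lies above the 13.8% of all genes. Fitted on the guide libraries alone, it gives 5 of 89 members higher, where 6.83% of all genes are.

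SWI/SNF genes were called lower in KD more often than higher. The 14 tested subunit genes split into 3 higher and 8 lower in KD, with a median log2 fold change of -0.44, where 37.2% of all genes were higher and 40.4% lower. With library totals alone they split into 5 higher and 7 lower, where 45.4% of all genes were higher and 30.6% lower. Smarca4, which encodes BRG1, one of the alternative ATPase motors of the complex, stood at 257, 255 and 249 CPM in KD, 550.5, 609 and 599 CPM in KO_sg4, 536, 506 and 542 CPM in KO_sg1, against 498, 496 and 483 CPM in WT. All KD libraries lay at about the same low level, the 4 groups did not overlap, and both knockout groups lay above WT. The fitted value in KD was -0.96 ± 0.05 (1.94-fold lower, adjusted p = 9.66e-10), while KO_sg4 was at 0.25 ± 0.05 (adjusted p = 0.0015) and KO_sg1 was not called at 0.10 ± 0.05 (adjusted p = 0.14). Smarca2, which encodes the other motor BRM, stood at 28.7, 26.8 and 26.4 CPM in KD, 36.2, 33.8 and 35.5 CPM in KO_sg4, 25.2, 25.1 and 24.2 CPM in KO_sg1, against 28.3, 25.3 and 27.4 CPM in WT. Its KD and WT libraries overlapped, and the KO_sg4 libraries lay above all others, with a log2 fold change of 0.38 ± 0.06 (adjusted p = 0.000155) in KO_sg4 and an uncalled 0.02 ± 0.06 in KD.

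Several other subunits were lower in KD, while Smarcc2 and Arid2 were not called and Arid1a, Brd9 and Smarcd3 were called higher. Smarce1, whose product BAF57 carries an HMG domain that binds DNA, stood at 86.7, 89.2 and 90.6 CPM in KD, 197, 238 and 226 CPM in KO_sg4, 212, 225 and 228 CPM in KO_sg1, against 191, 193 and 184 CPM in WT. KD lay below and both knockouts above WT with no overlap between them and WT, at log2 fold changes of -1.09 ± 0.07 in KD (adjusted p = 2.21e-09), 0.22 ± 0.06 in KO_sg4 (adjusted p = 0.015) and 0.23 ± 0.06 in KO_sg1 (adjusted p = 0.0124). Smarcc1, a scaffold subunit (BAF155), stood at 88.7, 90.7 and 89.8 CPM in KD, 223, 164 and 197 CPM in KO_sg4, 162, 182 and 156 CPM in KO_sg1, against 173, 171 and 179 CPM in WT. Only the KD libraries were set apart, at -0.96 ± 0.09 (adjusted p = 2.64e-07), and the other 3 groups overlapped. Smarcb1, the core subunit SNF5 that is lost in rhabdoid tumours, was 1.86-fold lower in KD (log2 fold change -0.90 ± 0.06, adjusted p = 9.78e-09) at 126 to 132 CPM in KD against 227 to 249 CPM in WT. Brd7, a bromodomain subunit of the PBAF form, stood at 70.5, 65.7 and 63.8 CPM in KD, 121, 124 and 124 CPM in KO_sg4, 114, 124 and 121 CPM in KO_sg1, against 136, 129 and 126 CPM in WT. The KD libraries were again the low ones (-0.97 ± 0.06, adjusted p = 1.34e-09), with both knockout groups just under WT and not called. Brd9, a bromodomain subunit of the non-canonical form, was at 58.9 to 63.1 CPM in KD against 50.1 to 52.2 CPM in WT (0.25 ± 0.07, adjusted p = 0.00383), and Arid2, a subunit of the PBAF form, was at 0.09 ± 0.13 in KD (adjusted p = 0.539).

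The paralogous Smarcd subunits, which link the complex to transcription factors, did not move together. Smarcd2 was called lower in all 3 groups, at -0.82 ± 0.05 in KD, -0.28 ± 0.05 in KO_sg4 and -0.20 ± 0.05 in KO_sg1, from 144 to 148 CPM in KD, 203 to 222 CPM in KO_sg4 and 219 to 233 CPM in KO_sg1, against 254 to 259.6 CPM in WT. Smarcd1 fell in KD (-0.58 ± 0.05, adjusted p = 1.99e-07). In KO_sg4 it was called higher at 0.17 ± 0.05 (adjusted p = 0.0214), a call lost on leaving out any one of KO_sg4 replicate 3 and WT replicates 1, 2 and 3 (adjusted p = 0.055 to 0.062). That call was also lost with library totals alone. Smarcd3, a member with few reads, averaged 2.89 ± 0.442 CPM in KD and 0.813 ± 0.199 CPM in WT (SD, n = 3 each) and was the member with the highest fold change in KD, 1.83 ± 0.26 (adjusted p = 1.51e-05). Of the ARID subunits that define the BAF form, Arid1a stood at 203 to 214 CPM in KD against 167 to 184 CPM in WT (0.25 ± 0.08, adjusted p = 0.0147), a call lost without WT replicate 1 (adjusted p = 0.0775) and reversed to -0.049 once the trend of fold change with transcript length was taken out. Arid1b was at -0.29 ± 0.10 in KD (adjusted p = 0.0211), a call lost on leaving out any one of KD replicates 1, 2 and 3 and WT replicate 3 (adjusted p = 0.056 to 0.123) and with library totals alone (-0.069).

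In KO_sg4, SWI/SNF genes split into 5 higher and 1 lower, and in KO_sg1 into 1 higher and 1 lower. Over all genes, 18% were higher and 22% lower in KO_sg4, and 16.9% and 21.9% in KO_sg1. The 5 called higher in KO_sg4 were Smarca2, Smarca4, Smarcc2, Smarcd1 and Smarce1. Fitted on the KO_sg4 and WT libraries alone, the group gave 2 higher and 1 lower, where 13.8% of all genes were higher and 17.9% lower. The calls of Smarcc2, Smarcd1 and Smarce1 were lost there, and so were the KO_sg4 calls of Dnmt1, Dnmt3a, Hdac7, Cbx5, Setd6 and Sirt6 described below. Smarcc2, the other scaffold subunit (BAF170), was at 150.3 to 172 CPM in KO_sg4 against 137 to 142 CPM in WT (0.19 ± 0.06, adjusted p = 0.0147), a call lost without WT replicate 2 (adjusted p = 0.0599), and it did not pass the test in KD (0.01 ± 0.06). Of 12 tested partner genes of the complex that are not members, 1 was higher and 7 were lower in KD (median -0.46), the 7 being Actl6a, Bcl7b, Bcl7c, Dpf2, Pbrm1, Phf10 and Ss18. In KO_sg4, 1 was higher and 1 lower. The shares of all genes in KD were 37.2% higher and 40.4% lower.

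Among the SNF2 ATPases outside SWI/SNF, Smarca5, the motor of the ISWI complexes that space nucleosomes, stood at 118, 122 and 121 CPM in KD, 324, 255 and 297 CPM in KO_sg4, 237, 273 and 237 CPM in KO_sg1, against 257, 251 and 253 CPM in WT. The KD libraries were 2.11-fold lower than WT (-1.08 ± 0.08, adjusted p = 1.77e-08), and the other 3 groups overlapped. Smarca5 has a near-identical copy in the table, Smarca5-ps, at 0.712 CPM in KD and 0.509 CPM in WT. The estimated counts share reads between such copies, so the Smarca5 value is uncertain.

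**Figure D2:**
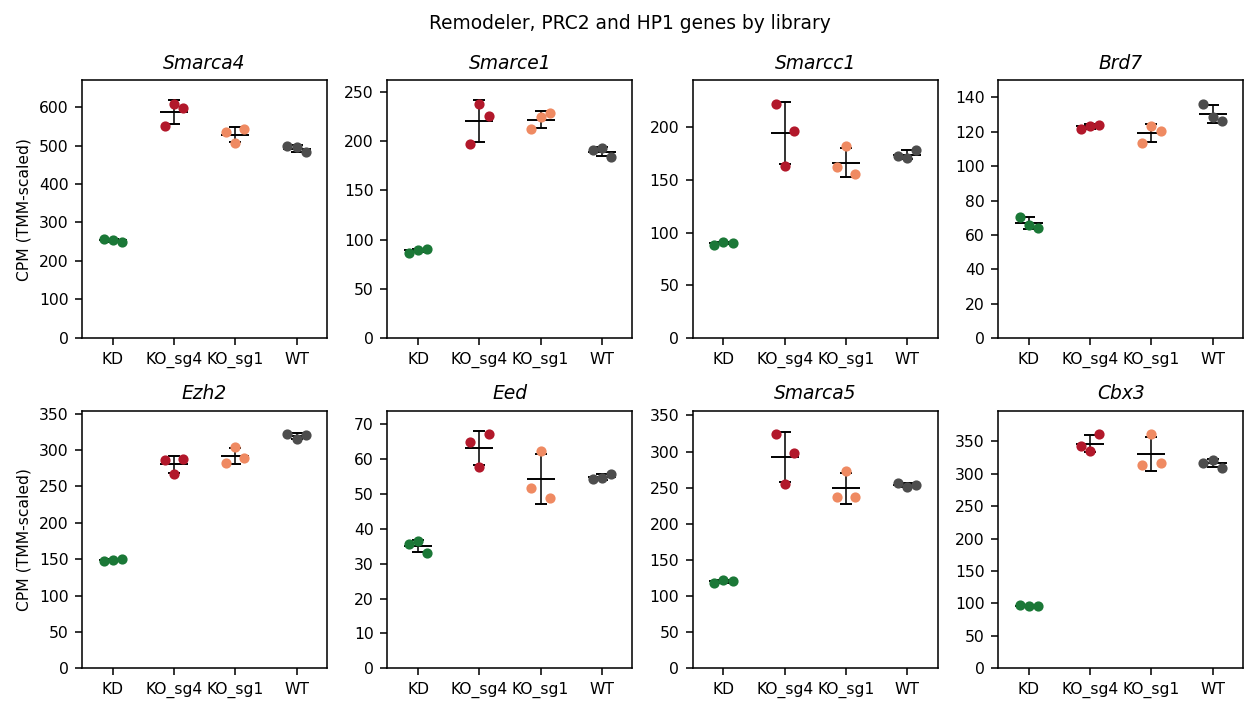
TMM-scaled CPM of 8 remodeler, PRC2 and HP1 genes in every library; points are libraries, horizontal bars the mean of 3 and whiskers the SD. In every panel the KD points lie lowest, for Smarca4 at 249 to 257 CPM in KD and 483 to 498 CPM in WT.

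PRC2, the Polycomb complex that methylates histone H3, was lower in KD in 4 of its 5 tested genes. Over all genes, 40.4% were lower and 37.2% higher in KD. Ezh2, the main catalytic subunit in dividing cells, stood at 147, 148 and 151 CPM in KD, 286, 267 and 288 CPM in KO_sg4, 282, 305 and 289 CPM in KO_sg1, against 322, 315 and 321 CPM in WT. The KD libraries lay at less than any other library, and WT lay above both knockout groups, which overlapped each other. The log2 fold change was -1.10 ± 0.05 in KD (2.15-fold lower, adjusted p = 1.47e-10), -0.19 ± 0.05 in KO_sg4 (adjusted p = 0.0073) and an uncalled -0.13 ± 0.05 in KO_sg1 (adjusted p = 0.0506). With library totals alone the KO_sg4 value was -0.15 and was not called (adjusted p = 0.0913). Eed, the subunit that reads the methyl mark, stood at 35.6, 36.6 and 33.1 CPM in KD, 64.9, 57.7 and 67.2 CPM in KO_sg4, 51.6, 62.4 and 49 CPM in KO_sg1, against 54.4, 54.5 and 55.8 CPM in WT. KD was low without overlap (-0.65 ± 0.09, adjusted p = 8.32e-06), and neither knockout was called.

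Suz12, the structural core of PRC2, was at 89, 94.3 and 91.3 CPM in KD, 167, 96.3 and 123 CPM in KO_sg4, 102, 130.2 and 93.9 CPM in KO_sg1, against 129.9, 126 and 137 CPM in WT. The KD libraries were alike and all lay under WT (-0.52 ± 0.15, adjusted p = 0.00729). Each knockout group spread so widely that it ran from near the KD level into the WT range. With library totals alone the KD call was lost at -0.30 (adjusted p = 0.162). Ezh1, the weaker catalytic paralog that prevails in resting cells, was the exception upward, at 26.3 to 28.2 CPM in KD against 22.9 to 25.5 CPM in WT (0.20 ± 0.08, adjusted p = 0.0259). That call was lost on leaving out any one of KD replicates 1 and 3 and WT replicates 2 and 3 (adjusted p = 0.0502 to 0.123). With the length trend removed the value was -0.015.

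Jarid2, which brings PRC2 to its targets and lacks demethylase activity, fell in every comparison with WT. It stood at 28.2, 28.6 and 28 CPM in KD, 29.7, 24.3 and 24.2 CPM in KO_sg4, 25.3, 26.3 and 25.1 CPM in KO_sg1, against 35.4, 36.4 and 36.1 CPM in WT. WT lay above all other libraries, and KD overlapped KO_sg4. The log2 fold changes were -0.35 ± 0.07 in KD (adjusted p = 0.000513), -0.46 ± 0.07 in KO_sg4 (adjusted p = 0.000152) and -0.49 ± 0.07 in KO_sg1 (adjusted p = 0.000109); the KD call was lost with library totals alone (-0.13). Among 6 non-member PRC2 partners, 1 was higher (Phf1) and 3 were lower (Phf19, Rbbp4 and Rbbp7) in KD, 3 were higher and none lower in KO_sg4, and 2 were higher and 1 lower in KO_sg1. Of all genes, 37.2% were higher and 40.4% lower in KD, 18% and 22% in KO_sg4, and 16.9% and 21.9% in KO_sg1.

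The chromodomain genes of the Cbx family divide into readers of the Polycomb mark and the HP1 proteins, which read the histone mark of heterochromatin. Cbx7, a Polycomb reader, stood at 38.5, 39 and 40.0 CPM in KD, 15.3, 18.3 and 13.4 CPM in KO_sg4, 19.2, 16 and 18.9 CPM in KO_sg1, against 15.8, 17.3 and 18.9 CPM in WT. KD was high without overlap (2.26-fold higher, 1.18 ± 0.10, adjusted p = 1.13e-07), and the other groups overlapped. Cbx8, another Polycomb reader, stood at 14.6, 14.7 and 14.7 CPM in KD, 8.21, 8.21 and 9.15 CPM in KO_sg4, 11, 10.7 and 11 CPM in KO_sg1, against 12.3, 12.8 and 12.5 CPM in WT. Here no groups overlapped: KD lay above WT and both knockouts below it. The values were 0.23 ± 0.07 in KD (adjusted p = 0.0118), -0.56 ± 0.08 in KO_sg4 (adjusted p = 4.22e-05) and -0.21 ± 0.08 in KO_sg1 (adjusted p = 0.0441). The KD call was lost without WT replicate 1 (adjusted p = 0.0534), without the low-count filter and with the length trend removed. The KO_sg1 call was lost on leaving out any one of KD replicates 1, 2 and 3, KO_sg1 replicates 1, 2 and 3 and WT replicates 1, 2 and 3 (adjusted p = 0.0685 to 0.126). It was also lost with size factors by relative log expression, in DESeq2 and without the low-count filter. The same held with only the groups compared, with a replicate block and with the length trend removed. The KO_sg4 call was kept in every alternative run. Over the 5 Polycomb Cbx genes KD gave 2 higher and 0 lower, which turned to 1 higher and 2 lower with the length trend removed. The shares of all genes were 37.2% and 40.4%, and 34.7% and 45.3% with that trend removed.

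All 3 HP1 genes were called lower in KD, of which 1, Cbx3, stayed called with library totals alone. Over all genes, 40.4% were called lower in KD, and 30.6% with library totals alone. Cbx3, which encodes HP1 gamma, stood at 97.4, 95.9 and 96.2 CPM in KD, 343, 335 and 361 CPM in KO_sg4, 314, 361 and 317 CPM in KO_sg1, against 317, 321 and 309 CPM in WT, the lowest log2 fold change of any member in KD, -1.71 ± 0.06 (3.27-fold lower, adjusted p = 2.26e-11). The KD libraries stood apart from all others and neither knockout was called. Cbx3 has processed copies in the mouse genome, so its estimated counts are uncertain. Cbx1 (HP1 beta) stood at 60.2, 60.9 and 53 CPM in KD, 93.4, 92.5 and 97.2 CPM in KO_sg4, 81.8, 87.1 and 80.2 CPM in KO_sg1, against 70.6, 72.7 and 72.3 CPM in WT. KD lay below WT and both knockouts above it, with no overlap between any groups (-0.31 ± 0.06 in KD, adjusted p = 0.000305; 0.39 ± 0.06 in KO_sg4, adjusted p = 0.000105; 0.21 ± 0.06 in KO_sg1, adjusted p = 0.0128). The KO_sg1 call was lost on leaving out any one of KO_sg1 replicate 2 and WT replicate 1 (adjusted p = 0.0512 to 0.053). It was also lost with library totals alone. Cbx5 (HP1 alpha) was called lower in all 3 comparisons with WT (-0.32 ± 0.08 in KD, -0.21 ± 0.08 in KO_sg4 and -0.27 ± 0.08 in KO_sg1). Its KO_sg4 call was narrow (adjusted p = 0.0495) and was lost on leaving out any one of KD replicates 1, 2 and 3, KO_sg4 replicates 2 and 3, KO_sg1 replicate 1 and WT replicates 1, 2 and 3 (adjusted p = 0.0676 to 0.179). That call was also lost with size factors by relative log expression, with library totals alone, in DESeq2 and with a replicate block. Its KO_sg1 call was lost on leaving out any one of KO_sg1 replicate 3 and WT replicate 3 (adjusted p = 0.0576 to 0.0714).

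The fall of SWI/SNF, PRC2 and HP1 genes in KD went together with the proliferation list, of which 13 of 15 genes were called lower and none higher in KD (median -0.76), 7 higher and none lower in KO_sg4, and 7 higher and 1 lower in KO_sg1. It also went together with the myeloid list, of which 6 of 7 tested genes were higher in KD and 6 of 7 lower in each knockout. The B-lineage list moved in KD too, with 7 of 10 genes higher and 1 lower (median 1.13). It gave 4 higher and 4 lower in KO_sg4, and 4 higher and 3 lower in KO_sg1. Of all genes, 37.2% were higher and 40.4% lower in KD, 18% and 22% in KO_sg4, and 16.9% and 21.9% in KO_sg1. The part of proliferation, of the myeloid genes and of the B-lineage genes in these results was not tested.

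**Figure D3:**
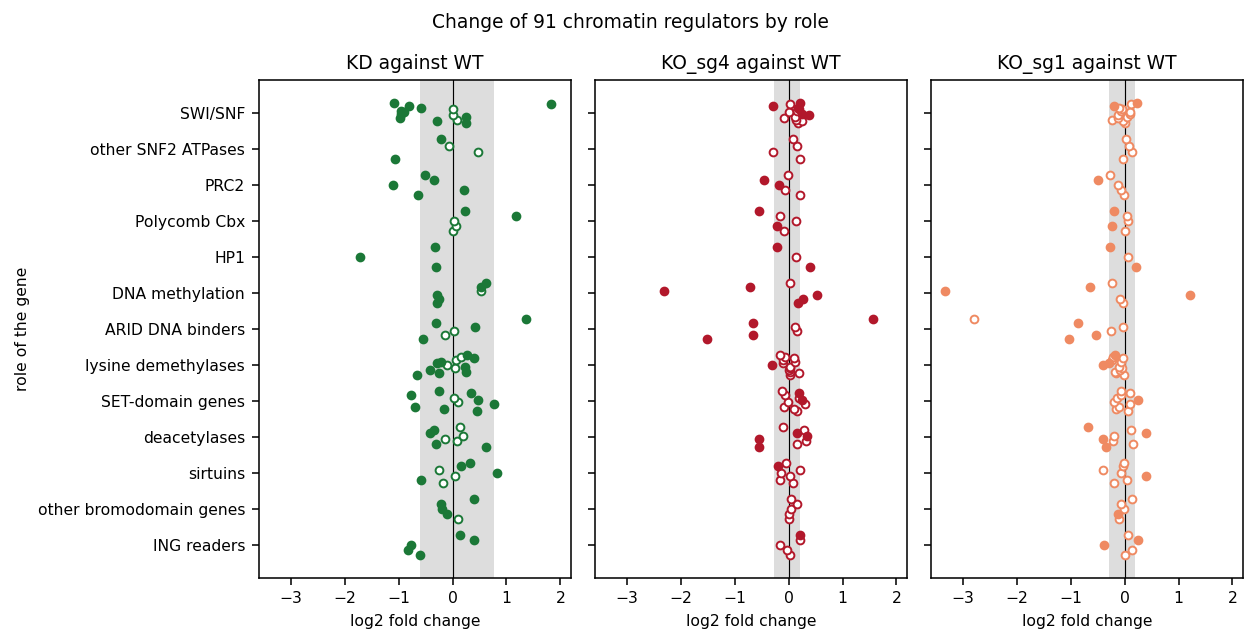
Log2 fold change against WT of the 91 tested chromatin regulators by role, in KD (left), KO_sg4 (middle) and KO_sg1 (right), under TMM scaling; filled points were called, open points were not, and the grey band holds the middle 50% of all genes. In KD the SWI/SNF, PRC2 and HP1 points lie mostly left of 0 (8 of 14, 4 of 5 and 3 of 3 called lower, or 7, 2 and 1 with library totals alone), and the points of both knockouts lie mostly within 0.5 of 0. Of all genes, 40.4% were called lower in KD, or 30.6% with library totals alone.

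The DNA methylation genes differed between KD and the knockouts, with Dnmt genes lower and Tet2 and Tet3 higher in KD. Dnmt3b, a de novo methyltransferase, stood at 5.68, 6.26 and 5.73 CPM in KD, 11.2, 10.5 and 9.52 CPM in KO_sg4, 16.4, 18 and 15.7 CPM in KO_sg1, against 7.35, 6.90 and 7.39 CPM in WT. No groups overlapped, with KO_sg1 highest, then KO_sg4, then WT, then KD. The log2 fold changes were -0.29 ± 0.10 in KD (adjusted p = 0.0135), 0.53 ± 0.09 in KO_sg4 (adjusted p = 0.000453) and 1.22 ± 0.09 in KO_sg1 (2.32-fold higher, adjusted p = 1.26e-07), the highest of any member called in KO_sg1. The KD call was lost on leaving out any one of KD replicates 1 and 3 and WT replicate 3 (adjusted p = 0.0565 to 0.0738), in DESeq2 (adjusted p = 0.0502) and with library totals alone (-0.072). The guides differed from each other in Dnmt3b, with a log2 fold change in KO_sg4 against KO_sg1 of -0.69 ± 0.09 (adjusted p = 5.81e-05).

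Dnmt1, which copies methylation to the new strand after replication, stood at 364, 363 and 354 CPM in KD, 496, 486 and 499.7 CPM in KO_sg4, 429.7, 442 and 425 CPM in KO_sg1, against 442, 427 and 451 CPM in WT. KD was low and KO_sg4 high without overlap, and KO_sg1 overlapped WT. The values were -0.29 ± 0.05 in KD (adjusted p = 4.79e-05) and 0.17 ± 0.05 in KO_sg4 (adjusted p = 0.00909), the KD call being lost with library totals alone (-0.067) and the KO_sg4 call without WT replicate 2 (adjusted p = 0.0574). Dnmt3a, the other de novo enzyme and a gene often mutated in myeloid leukemia, averaged 43.1 ± 0.811 CPM in KD, 61.7 ± 7.70 CPM in KO_sg4, 48.4 ± 2.16 CPM in KO_sg1 and 51.4 ± 0.901 CPM in WT (SD, n = 3 each). It was called at -0.26 ± 0.08 in KD (adjusted p = 0.0068) and 0.27 ± 0.07 in KO_sg4 (adjusted p = 0.0113), and the KD call was lost without KD replicate 3 (adjusted p = 0.0521) and with library totals alone (-0.035).

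Tet2, an enzyme that oxidises methylcytosine and is a tumour suppressor in blood cells, was higher in KD and lower in both knockouts. It stood at 27.4, 30.3 and 29.6 CPM in KD, 15.3, 12.2 and 9.21 CPM in KO_sg4, 13.6, 12.7 and 12.6 CPM in KO_sg1, against 18.9, 19.9 and 22.1 CPM in WT. KD lay above and both knockouts below WT, with overlap between the knockouts only. The values were 0.52 ± 0.13 in KD (adjusted p = 0.00195), -0.72 ± 0.13 in KO_sg4 (adjusted p = 0.000643) and -0.64 ± 0.14 in KO_sg1 (adjusted p = 0.00184), and no alternative run here ended any of these calls. Tet3 stood at 76.3, 80.3 and 78.4 CPM in KD, 64.7, 40.6 and 49.3 CPM in KO_sg4, 45.2, 46.1 and 38.3 CPM in KO_sg1, against 49.9, 49.3 and 53.2 CPM in WT, with KD high without overlap (0.63 ± 0.12, adjusted p = 0.000349) and a KO_sg4 group that spread across the WT range. Tet1 was close to the detection limit, with 22, 16 and 19 counts in KD, 5, 0 and 2 in KO_sg4 and 3, 0 and 0 in KO_sg1, against 17, 9 and 11 in WT. From these counts Tet1 was lower in KO_sg1 by a ratio of 11.2 (95% counting interval 3.54 to 56.6), and the interval covers counting error only. Over the 6 genes of this role KD gave 2 higher and 3 lower, which became 2 higher and 0 lower with library totals alone. The shares of all genes in KD were 37.2% and 40.4%, and 45.4% and 30.6% with library totals alone. Of 5 non-member partners, none was higher and 2, Tdg and Uhrf1, were lower in KD, while Tdg, Uhrf1 and Uhrf2 were higher in KO_sg4. In KO_sg4, 18% of all genes were higher.

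The ARID DNA binders outside SWI/SNF held the lowest knockout values among members with at least 5 CPM in a group. Arid3a, a factor known in B cells as Bright that binds AT-rich DNA near the immunoglobulin heavy-chain gene, stood at 23.2, 27.5 and 25.6 CPM in KD, 14.3, 10.0 and 14.2 CPM in KO_sg4, 17.6, 18.5 and 18.1 CPM in KO_sg1, against 37.3, 37.5 and 36.1 CPM in WT. WT was highest and no groups overlapped, with KD, then KO_sg1, then KO_sg4 below it. The log2 fold changes were -0.54 ± 0.10 in KD (adjusted p = 0.000196), -1.51 ± 0.11 in KO_sg4 (2.85-fold lower, adjusted p = 4.26e-08) and -1.03 ± 0.10 in KO_sg1 (2.05-fold lower, adjusted p = 2.3e-06). Arid5a, which also stabilises inflammatory mRNAs, stood at 96.4, 93.5 and 96.7 CPM in KD, 69.1, 80.5 and 74.5 CPM in KO_sg4, 65.8, 62.2 and 64.5 CPM in KO_sg1, against 116, 120.2 and 116 CPM in WT. Again WT was highest, all groups were separate, and KO_sg1 was lowest, at -0.30 ± 0.06 in KD (adjusted p = 0.00023), -0.66 ± 0.06 in KO_sg4 (adjusted p = 4.26e-07) and -0.87 ± 0.06 in KO_sg1 (adjusted p = 2.64e-08). The KD call of Arid5a was lost with library totals alone (-0.08).

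Arid3b, the paralog of Arid3a, stood at 23.5, 24.5 and 24.8 CPM in KD, 18.8, 17 and 15.1 CPM in KO_sg4, 19.8, 18.7 and 16.9 CPM in KO_sg1, against 25.7, 25.8 and 28.7 CPM in WT. Both knockouts lay below KD and WT, which did not overlap, with -0.66 ± 0.09 in KO_sg4 (adjusted p = 2.7e-05), -0.53 ± 0.09 in KO_sg1 (adjusted p = 0.00022) and an uncalled -0.14 ± 0.08 in KD (adjusted p = 0.136). Arid5b, a gene with inherited risk variants for childhood leukemia in human, was nearly silent, with 6, 10 and 12 counts in KD, 17, 3 and 10 in KO_sg4 and 0, 0 and 1 in KO_sg1, against 3, 3 and 4 in WT. KO_sg4 thus exceeded KO_sg1 by a ratio of 28 with a 95% counting interval of 4.65 to 1141. The 6 tested genes of this role split into 1 higher and 3 lower in KO_sg4 and 0 higher and 3 lower in KO_sg1, the 3 lower genes being Arid3a, Arid3b and Arid5a in both. Over all genes, 18% were higher and 22% lower in KO_sg4, and 16.9% and 21.9% in KO_sg1.

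**Figure D4:**
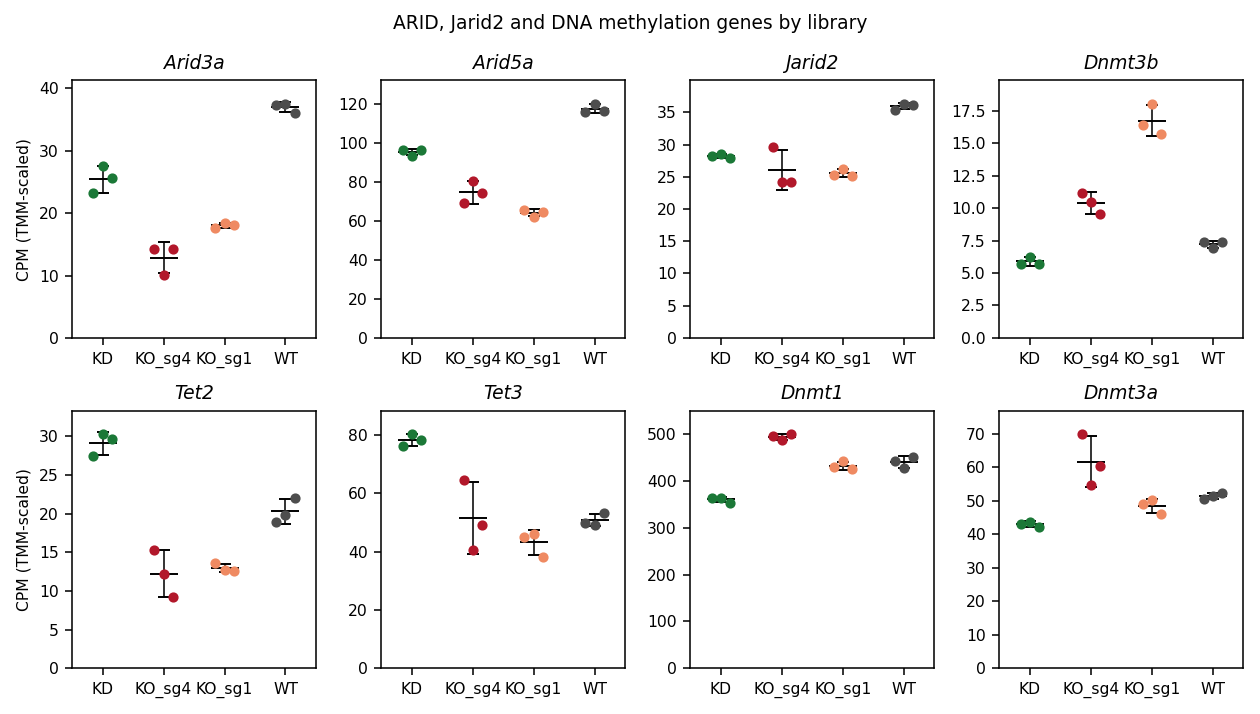
TMM-scaled CPM of 8 ARID, Jarid2 and DNA methylation genes in every library; points are libraries, horizontal bars the mean of 3 and whiskers the SD. Arid3a, Arid5a and Jarid2 are highest in WT, Dnmt3b is highest in KO_sg1 (15.7 to 18 CPM in KO_sg1, 6.90 to 7.39 CPM in WT), and Tet2 is highest in KD and lowest in the knockouts.

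The lysine demethylases gave 4 higher and 5 lower of 13 tested in KD, near the 37.2% and 40.4% of all genes, 0 higher and 1 lower in KO_sg4 and 0 higher and 3 lower in KO_sg1. Library totals alone turned the KD split to 6 higher and 2 lower. The shares of all genes were 18% and 22% in KO_sg4, 16.9% and 21.9% in KO_sg1, and 45.4% and 30.6% in KD with library totals alone. Kdm1a (LSD1), which demethylates histone H3, gave the lowest KD value of the role, at 63.5 to 66.4 CPM in KD against 102 to 106 CPM in WT (-0.67 ± 0.05, 1.59-fold lower, adjusted p = 2.34e-08). Kdm2b, a subunit of a variant Polycomb complex, was also lower in KD (-0.43 ± 0.05, adjusted p = 3.57e-06), and neither gene was called in a knockout. Kdm4a, a histone H3 demethylase, was called in both knockouts, at 80.3 to 86.9 CPM in KO_sg4 and 72.1 to 82 CPM in KO_sg1 against 97.8 to 108 CPM in WT (-0.30 ± 0.06, adjusted p = 0.00129, and -0.40 ± 0.06, adjusted p = 0.000171). Kdm6b (JMJD3), a demethylase of the Polycomb mark, was at 45.3 to 48.2 CPM in KD against 36.5 to 40.4 CPM in WT (0.27 ± 0.06, adjusted p = 0.00166), a value that became -0.012 with the length trend removed. None of the 13 tested members of this role differed from WT by 2-fold in any group.

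Kdm5c and Kdm6a are X-linked and have Y-linked copies, Kdm5d and Uty, that are not members. Kdm5c, which removes the methyl mark of active promoters (H3K4), stood at 137, 131 and 131 CPM in KD, 113, 99.4 and 111 CPM in KO_sg4, 99.9, 103 and 92.7 CPM in KO_sg1, against 98.1, 99.4 and 104 CPM in WT. KD was high without overlap (0.41 ± 0.06, adjusted p = 2.3e-05) and the other groups overlapped. Kdm6a (UTX), a demethylase of the Polycomb mark, was not called against WT in any group, at 0.15 ± 0.13 in KD, -0.08 ± 0.13 in KO_sg4 and -0.22 ± 0.13 in KO_sg1. Kdm5d had 0 counts in all 6 knockout libraries and stood at 40.2 to 41.1 CPM in KD and 24 to 26.5 CPM in WT. Uty stood at 13.2 to 14.5 CPM in KD, 0.0310 to 0.147 CPM in KO_sg4 and 0 to 0.0884 CPM in KO_sg1, against 9.71 to 11.8 CPM in WT. The knockout cells thus held next to no transcript of the Y-linked copies, while neither X-linked gene passed the test against WT in either knockout.

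**Figure D5:**
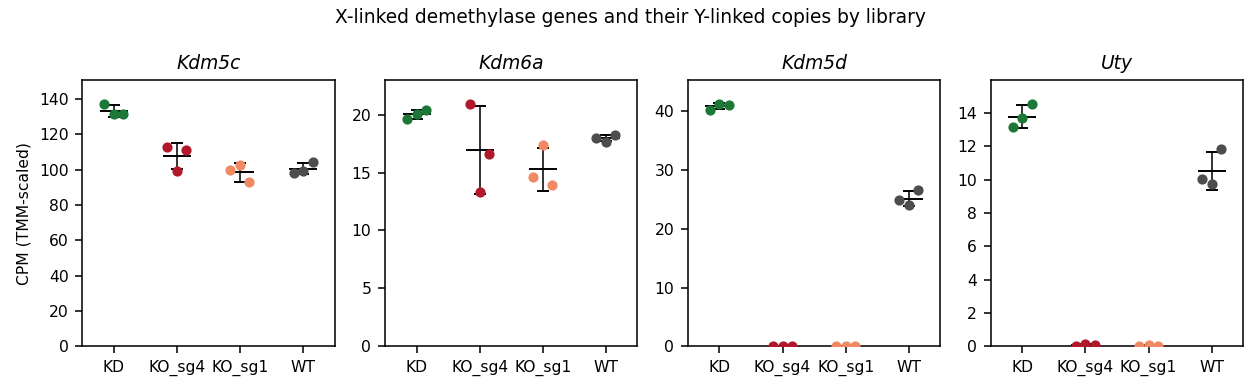
TMM-scaled CPM of the X-linked demethylase genes Kdm5c and Kdm6a and of their Y-linked copies Kdm5d and Uty in every library; points are libraries, horizontal bars the mean of 3 and whiskers the SD. Kdm5d is at 40.2 to 41.1 CPM in KD, 0 in all knockout libraries and 24 to 26.5 CPM in WT.

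The Setd genes and their relatives gave 4 higher and 4 lower of 10 tested in KD, or 5 higher and 2 lower with library totals alone and 3 higher and 5 lower with the length trend removed. In the same order, 37.2%, 45.4% and 34.7% of all genes were higher in KD, and 40.4%, 30.6% and 45.3% lower. Setd6, which methylates the NF-kappaB subunit RelA, was the member called higher in all 3 groups, at 0.48 ± 0.08 in KD (adjusted p = 4.9e-05), 0.25 ± 0.08 in KO_sg4 (adjusted p = 0.0173) and 0.24 ± 0.08 in KO_sg1 (adjusted p = 0.0235). Its levels were 35.4 to 39.6 CPM in KD, 28.7 to 35 CPM in KO_sg4 and 30.1 to 33.1 CPM in KO_sg1, against 25.3 to 27.9 CPM in WT. The KO_sg4 call was lost on leaving out any one of KO_sg4 replicate 2 and WT replicate 3 (adjusted p = 0.0522 to 0.0628). The KO_sg1 call was lost on leaving out any one of KO_sg1 replicates 1 and 3 and WT replicate 3 (adjusted p = 0.0691 to 0.0815). It was also lost with library totals alone. Setd4 stood at 25.3, 23.7 and 23.7 CPM in KD, 15.7, 21.4 and 15.7 CPM in KO_sg4, 16.1, 13.5 and 16.7 CPM in KO_sg1, against 13.6, 14.2 and 15 CPM in WT, with KD highest and separate (0.77 ± 0.11, adjusted p = 2.53e-05). Setd1a, which places the H3K4 mark, rose, at 153 to 161 CPM in KD against 111 to 119 CPM in WT (0.46 ± 0.07, adjusted p = 5.99e-05). The lowest KD values of this role were those of Setd8, which places the H4K20 mark, and Setd3, an actin histidine methyltransferase. Setd8 was at 137 to 140.4 CPM in KD against 232 to 242 CPM in WT (-0.78 ± 0.05, adjusted p = 3.69e-09). Setd3 was at 49.4 to 53.1 CPM in KD against 80.4 to 86 CPM in WT (-0.69 ± 0.06, adjusted p = 5.31e-08), and neither was called in a knockout. Setd2, which marks the bodies of transcribed genes, was at -0.15 ± 0.06 in KD (adjusted p = 0.0373), a call lost on leaving out any one of KD replicates 1, 2 and 3, KO_sg4 replicate 3 and WT replicates 2 and 3 (adjusted p = 0.0801 to 0.162) and turned to 0.066 with library totals alone. That call was also lost with size factors by relative log expression, in DESeq2 and with a replicate block.

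Among the histone deacetylases 8 were tested, and KD gave 1 higher and 3 lower, or 3 higher and 1 lower with library totals alone. Over all genes, 37.2% were higher and 40.4% lower in KD, or 45.4% and 30.6% with library totals alone. Hdac7, a class IIa enzyme with a known role in B-cell precursors, stood at 208, 211 and 199.8 CPM in KD, 314, 316 and 292 CPM in KO_sg4, 385, 348 and 364 CPM in KO_sg1, against 277, 272 and 280.4 CPM in WT. No groups overlapped, with KO_sg1 highest and KD lowest. The values were -0.42 ± 0.05 in KD (adjusted p = 4.5e-06), 0.15 ± 0.05 in KO_sg4 (adjusted p = 0.0342) and 0.40 ± 0.05 in KO_sg1 (adjusted p = 3.29e-05). The KO_sg4 call was lost on leaving out any one of KO_sg4 replicate 2 and WT replicates 1, 2 and 3 (adjusted p = 0.0572 to 0.116). It was also lost without the low-count filter and with a replicate block. Hdac10, which deacetylates polyamines, went the other way at 118, 109 and 115 CPM in KD, 45.3, 59.8 and 47.8 CPM in KO_sg4, 61.3, 51.2 and 64.4 CPM in KO_sg1, against 73.8, 74.6 and 75.1 CPM in WT. KD was highest and the knockouts, which overlapped each other, lay below WT (0.61 ± 0.10 in KD, adjusted p = 4.21e-05; -0.55 ± 0.10 in KO_sg4, adjusted p = 0.000428; -0.34 ± 0.10 in KO_sg1, adjusted p = 0.013). The KO_sg1 call was lost without KO_sg1 replicate 2 (adjusted p = 0.0588).

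Hdac5, another class IIa enzyme, fell in both knockouts (-0.54 ± 0.07 in KO_sg4, adjusted p = 2.37e-05, and -0.39 ± 0.07 in KO_sg1, adjusted p = 0.000481) and was not called in KD (-0.14 ± 0.07). Hdac9 stood at 16.9, 18.4 and 16.7 CPM in KD, 16.5, 12.6 and 14.7 CPM in KO_sg4, 10.1, 10.3 and 8.81 CPM in KO_sg1, against 15.4, 14.8 and 17 CPM in WT. KO_sg1 alone was low without overlap (-0.68 ± 0.10, adjusted p = 0.000144), and the guides differed by 0.58 ± 0.11 (adjusted p = 0.000918). Hdac3, the catalytic subunit of the NCoR corepressor, was at -0.31 ± 0.06 in KD (adjusted p = 0.000381), a call lost with library totals alone (-0.093). Among 9 corepressor partner genes that are not members, none was higher and 7 were lower in KD (median -0.40), Sin3a, Sin3b and Sap30 among them. In KO_sg4 none was higher and 2 were lower, and in KO_sg1 none was higher and 3 were lower. Of all genes, 37.2% were higher and 40.4% lower in KD, 18% and 22% in KO_sg4, and 16.9% and 21.9% in KO_sg1.

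Of the sirtuins, the NAD-dependent deacylases, Sirt4, a mitochondrial enzyme, stood at 20.4, 19.1 and 18.5 CPM in KD, 9.76, 11 and 9.21 CPM in KO_sg4, 9.70, 10.1 and 11.7 CPM in KO_sg1, against 11, 10.8 and 11 CPM in WT. KD was high without overlap (1.77-fold higher, 0.82 ± 0.09, adjusted p = 1.06e-06), and the rest overlapped. Sirt3, the main mitochondrial deacetylase, was high in KO_sg1 alone, at 14.7 to 15.6 CPM in KD, 13.8 to 16.7 CPM in KO_sg4 and 17.9 to 20.2 CPM in KO_sg1, against 14.1 to 15.8 CPM in WT (0.40 ± 0.09, adjusted p = 0.00276). Sirt2, a tubulin and histone deacetylase, was lower in KD, at 23.1 to 24.7 CPM in KD against 34.8 to 36.9 CPM in WT (-0.58 ± 0.09, adjusted p = 2.52e-05).

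The 5 ING genes, whose PHD fingers read the H3K4 mark, gave 2 higher and 3 lower in KD, where 37.2% of all genes were higher and 40.4% lower. Lower were Ing2, at 14.5 to 15.9 CPM in KD against 25.1 to 27.7 CPM in WT (-0.84 ± 0.09, adjusted p = 1.36e-06), Ing3 (-0.77 ± 0.08, adjusted p = 3.51e-07) and Ing1 (-0.60 ± 0.06, adjusted p = 6.65e-07). Ing3 was lower in KO_sg1 as well (-0.39 ± 0.07, adjusted p = 0.000909). Ing4 was at 0.40 ± 0.08 in KD (adjusted p = 0.000342) and 0.24 ± 0.08 in KO_sg1 (adjusted p = 0.0286), the KO_sg1 call being lost on leaving out any one of KO_sg1 replicates 1, 2 and 3 and WT replicates 1, 2 and 3 (adjusted p = 0.0519 to 0.0734). The KO_sg1 call was also lost with library totals alone.

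Read gene by gene over the 3 comparisons with WT, 15 members were called in none of them, 16.5% against 11.5% of all genes. They include Arid2, Brd1, Kdm5a, Kdm6a, Sirt1 and Smarcad1. Lower in KD and called in neither knockout were 24 members (26.4% against 18.3%), the commonest pattern. Called in the same direction in all 3 were 6 members (6.59% against 8.78%): Arid3a, Arid5a, Cbx5, Jarid2 and Smarcd2 downward, and Setd6 upward. Called in opposite directions in any pair of these comparisons were 13 members (14.3% against 24.1%). For the members the pair was always KD and a knockout, while the share of all genes also holds pairs of the 2 guides. Both guides were called the same way for 18 members (19.8% against 23.7%) and opposite ways for none, where 193 genes, 1.56% of all, were called opposite ways. The 5 members that did not reach the filter were Arid3c, Hdac11, Kdm4d, Kdm5b and Smarca1, the highest group mean among them being 0.496 CPM, and Smarca1 had no count in any library. Kdm5b had 4, 8 and 8 counts in KD, 8, 1 and 8 in KO_sg4 and 0 in each KO_sg1 library, against 4, 10 and 3 in WT.

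For those 13 members the values of KD against the mean of the knockouts describe the size of a gap that the choice of members had already set, so no p is given. Lower in KD and higher in a knockout were Smarca4 (-1.13 ± 0.05 in KD against KO), Smarce1 (-1.31 ± 0.06), Smarcd1 (-0.61 ± 0.05), Cbx1 (-0.61 ± 0.05), Dnmt3b (-1.16 ± 0.08) and Hdac7 (-0.70 ± 0.05). Dnmt1 and Dnmt3a differed by -0.36 ± 0.04 and -0.35 ± 0.07, and neither was called with library totals alone. Higher in KD and lower in a knockout were Tet2 (1.21 ± 0.11), Hdac10 (1.06 ± 0.08), Cbx8 (0.61 ± 0.06), Kdm6b (0.44 ± 0.06) and Sirt6 (0.27 ± 0.06). Outside those 13, Cbx3 gave the lowest value of any member, -1.81 ± 0.05 (adjusted p = 8.83e-13), and Cbx7 gave 1.23 ± 0.09 (adjusted p = 6.76e-09).

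Between the guides, the members of at least 5 CPM that differed most were Dnmt3b, lower in KO_sg4, and Hdac9, Hdac6 and Smarca2, higher in KO_sg4. Hdac6, a cytoplasmic enzyme that deacetylates tubulin, was at 31.9 to 37.2 CPM in KO_sg4 against 20.9 to 26.8 CPM in KO_sg1 (0.55 ± 0.09, adjusted p = 0.000314). Smarca2 was at 0.50 ± 0.06 (adjusted p = 3.11e-05) and Dnmt3a at 0.35 ± 0.08 (adjusted p = 0.00351). Arid4a, an Rb-binding protein, was at 0.40 ± 0.12 (adjusted p = 0.022) and Kdm1b, a paralog of Kdm1a, at 0.35 ± 0.11 (adjusted p = 0.0319). The Arid4a call was lost on leaving out any one of KO_sg4 replicate 1 and KO_sg1 replicates 1 and 3 (adjusted p = 0.0914 to 0.102), the Kdm1b call on leaving out any one of KO_sg4 replicates 1 and 3 and KO_sg1 replicates 1 and 3 (adjusted p = 0.05 to 0.134), and both with only the groups compared. Arid3a was lower in KO_sg4, at -0.48 ± 0.11 (adjusted p = 0.00542), a call lost with library totals alone (-0.36). Transcripts of members are long, with a median of 2910 bases against 2142.5 over the tested genes with a known length. The median log2 fold change of all genes between the guides ran from -0.11 in the shortest quintile of genes to 0.14 in the longest, and in KD against WT from -0.38 to 0.17. With that trend removed per library, an alternative chosen after seeing the data, the guide comparison gave 16 higher and 8 lower members and KD against WT gave 19 and 50, of 89 members tested. Over all genes, 13.7% were then higher and 15.6% lower between the guides, and 34.7% and 45.3% in KD against WT.

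Promoter sequences were read for 79 members from RefSeq on GRCm38.p6, each spanning 250 bases before to 50 bases after the gene's start. The count table was made on another build, so these windows serve only to show the sequence. The 4 motifs searched on both strands were the ETS core CCGGAAG, the E2F core GCGGGAA, the E-box CACGTG and the CCAAT box CCAAT, none of which contains another. The ETS core was in 8 of the 20 promoters of members called higher in KD (40.0%) and in 1 of the 35 of members called lower in KD (2.86%). It was in 13 of the 79 member promoters (16.5%) and in 9.12% of 27025 promoters, which are not limited to tested genes. The E2F core was in 5.0% of those of members higher in KD, 11.4% of those of members lower in KD and 4.66% of all promoters. The E-box was in 5.0% of the higher set, 2.86% of the lower set and 7.24% of all promoters, and the CCAAT box in 40.0% of the higher set, 42.9% of the lower set and 37.9% of all promoters. Among the 79 member promoters, the E2F core was in 6.33%, the E-box in 7.59% and the CCAAT box in 41.8%. A match is a description of the letters in the window and was not tested. Shown first are 2 members higher in KD with an ETS core, Setd4 (chr16:93603766-93604065 on the minus strand) and Setd6 (chr8:95715663-95715962 on the plus strand). Below them are 3 members lower in KD, Ezh2 (chr6:47594981-47595280 on the minus strand), Brd7 (chr8:88362123-88362422 on the minus strand) and Smarcc1 (chr9:110131774-110132073 on the plus strand), the last being the 1 of the 35 with an ETS core. Sequences run 5′ to 3′ along the gene, and capitals mark motif matches on either strand.
Setd4: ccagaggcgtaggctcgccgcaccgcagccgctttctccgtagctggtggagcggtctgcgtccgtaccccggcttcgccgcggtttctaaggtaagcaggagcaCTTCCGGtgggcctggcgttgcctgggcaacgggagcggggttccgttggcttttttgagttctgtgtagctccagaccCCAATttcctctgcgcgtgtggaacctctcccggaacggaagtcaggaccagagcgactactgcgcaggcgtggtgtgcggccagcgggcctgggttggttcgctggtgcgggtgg
Setd6: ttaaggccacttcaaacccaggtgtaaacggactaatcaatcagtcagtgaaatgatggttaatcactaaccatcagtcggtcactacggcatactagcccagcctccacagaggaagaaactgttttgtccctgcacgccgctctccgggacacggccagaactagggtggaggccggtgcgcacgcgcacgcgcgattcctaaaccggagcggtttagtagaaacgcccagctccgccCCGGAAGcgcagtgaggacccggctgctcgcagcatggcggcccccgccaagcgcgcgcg
Ezh2: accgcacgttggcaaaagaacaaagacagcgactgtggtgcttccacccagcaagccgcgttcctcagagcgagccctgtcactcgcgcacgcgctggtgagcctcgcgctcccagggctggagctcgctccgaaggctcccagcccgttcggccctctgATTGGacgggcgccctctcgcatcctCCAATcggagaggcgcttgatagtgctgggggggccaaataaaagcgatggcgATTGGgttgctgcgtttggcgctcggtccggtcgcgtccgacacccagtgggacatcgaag
Brd7: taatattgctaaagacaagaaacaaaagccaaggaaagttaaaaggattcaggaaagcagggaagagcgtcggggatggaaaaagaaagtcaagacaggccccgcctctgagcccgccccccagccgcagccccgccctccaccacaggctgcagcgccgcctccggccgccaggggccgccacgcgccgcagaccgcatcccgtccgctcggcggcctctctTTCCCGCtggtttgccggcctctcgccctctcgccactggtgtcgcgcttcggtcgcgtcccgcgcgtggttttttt
Smarcc1: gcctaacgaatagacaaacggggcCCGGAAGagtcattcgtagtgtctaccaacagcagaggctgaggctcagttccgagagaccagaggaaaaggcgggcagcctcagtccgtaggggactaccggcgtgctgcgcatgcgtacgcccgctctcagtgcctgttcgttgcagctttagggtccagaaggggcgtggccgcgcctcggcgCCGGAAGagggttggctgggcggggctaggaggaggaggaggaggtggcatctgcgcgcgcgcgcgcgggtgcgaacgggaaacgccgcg
Setd4 holds an ETS core and a CCAAT box, Setd6 an ETS core, Ezh2 3 CCAAT boxes, Brd7 an E2F core and Smarcc1 2 ETS cores.

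The remaining partner lists, of genes that are not members, stood as follows in KD, beside 37.2% higher and 40.4% lower over all genes. Of 13 tested PRC1 genes, 3 were higher (Pcgf2, Phc3 and Ring1) and 7 lower in KD. Of 5 tested H3K9 and H3K79 methyltransferases, none was higher and 3 were lower (Ehmt2, Suv39h1 and Suv39h2). Of 9 tested acetyltransferases none was higher and 2 were lower (Myst1 and Myst2), and of 9 tested genes of the H3K4 methyltransferases 4 were higher (Men1, Mll1, Mll2 and Mll3) and 3 lower (Ash2l, Dpy30 and Wdr5).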

How the data were processed

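The authors deposited one table of RSEM estimated counts for 23224 genes in 12 libraries, made per the labels' protocols from RNeasy RNA with a TruSeq mRNA kit. Per the submitters' processing notes, Bowtie 1.0.1 and RSEM 1.2.12 were used with the mm9 genome; for the annotation and the strand setting the sources used here give nothing. RSEM splits reads among near-identical genes, so such genes, overlapping genes and antisense genes are uncertain.

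Estimated counts, as deposited, were rounded to integers. The genes kept were those passing edgeR's filterByExpr (minimum count 10), and they were scaled with TMM and tested with edgeR 4.0.16 (R 4.3.3) in 1 quasi-likelihood model of 12 libraries with 4 group means, two-sided, with Benjamini-Hochberg adjustment over 12335 genes. Groups came from the sample titles. A count of 0 allows up to 0.0833 to 0.147 CPM in a library, taking 3 counts as the floor. Ratios of genes at 1 to 3 counts in a group have exact 95% binomial counting intervals. Neither covers more than counting error.

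The members, roles, partner lists and marker lists were chosen with earlier results of these data known. Named genes were, per comparison, the 8 highest and 8 lowest called members with a mean of at least 5 CPM, members called alike in all 3 comparisons with WT or oppositely in any pair of them, and a fixed set of 20 well-known regulators, of which 1 is not reported here. Smarcd3, Arid5b and the other members named outside this rule were chosen after their values were seen. Alternatives were size factors by relative log expression, library totals, no low-count filter, DESeq2 1.42.0, only the groups compared, a replicate block and leaving out each library. The removal of a length trend, with GENCODE transcript lengths on GRCm38 for 10529 genes, was added after seeing the data. The pipeline was tested on simulated data.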

Additional observations from a re-analysis of the deposited data

Results flagged for a closer look

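For 13 members the KD and knockout calls against WT had opposite signs and the test of KD against the mean of both knockouts was passed. The choice by opposite calls had already set a gap between KD and the knockouts, so their values are a description. In KD against KO, Smarca4 was at -1.13, Smarcd1 at -0.61, Smarce1 at -1.31, Cbx1 at -0.61, Hdac7 at -0.70, Dnmt1 at -0.36, Dnmt3a at -0.35 and Dnmt3b at -1.165 on the log2 scale, all lower in KD. Tet2 at 1.21, Hdac10 at 1.06, Cbx8 at 0.61, Kdm6b at 0.44 and Sirt6 at 0.27 were higher in KD. KD and both knockouts were each compared with the same WT libraries, so the opposite signs are not independent of WT. The knockout call behind the Kdm6b value came from KO_sg1. It was lost on leaving out any one of KD replicates 1, 2 and 3, KO_sg1 replicates 2 and 3 and WT replicates 1 and 3 (adjusted p = 0.0701 to 0.176). The knockout call behind Sirt6 came from KO_sg4. It was lost on leaving out any one of KO_sg4 replicates 1 and 3 and WT replicates 1 and 3 (adjusted p = 0.0752 to 0.116). Both knockout calls were also lost with size factors by relative log expression and with a replicate block. The KD call of Sirt6 was lost on leaving out any one of KO_sg1 replicate 3 and WT replicates 1 and 2 (adjusted p = 0.0575 to 0.176). Without the low-count filter or with a replicate block the KD call of Sirt6 was lost as well.

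The direct test between the guides picked out 8 members whose guides differed, whose sign against WT differed and that were called against WT in at least 1 guide. This choice had already set a gap between the guides, so the values are a description. The share of all genes that meet the same rule was not counted. In KO_sg4 against KO_sg1, Smarca2 was at 0.50, Smarcc2 at 0.25, Smarcd1 at 0.28, Hdac6 at 0.55, Dnmt1 at 0.19, Dnmt3a at 0.35 and Brd2 at 0.14, all higher in KO_sg4. With only the groups compared, the calls of Smarcc2, Dnmt1 and Brd2 were lost and those of Smarca2, Smarcd1, Hdac6 and Dnmt3a were kept, while Arid5b did not reach the low-count filter. Arid5b had a fitted value of 4.37, which rests on 1 count in KO_sg1 and is not a measure of size. None of the 8 was called in opposite directions against WT by the guides.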

How the results depend on the processing

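Over 320 named values and their alternatives, 5585 of 6068 refits kept their call or stayed uncalled, 304 lost a call and 167 gained one. In 12 the sign reversed with a call in at least 1 of the fits. A change of sign between uncalled fits was not counted. The KD decreases of Smarca4, Smarce1, Smarcc1, Smarcb1, Brd7, Smarca5, Ezh2, Eed and Cbx3 kept their call in every alternative run. Members called higher in KO_sg1 against WT numbered 7, where 16.9% of all genes were higher. They numbered 11 with size factors by relative log expression or DESeq2, against backgrounds of 21.6% and 22.3%. With library totals they numbered 4, against 10.7%, and with the length trend removed 12, against 23.6%. In KO_sg4 against WT they numbered 15, and 24 with DESeq2, 6 with only the groups compared and 26 with the length trend removed. The backgrounds, in the same order, were 18%, 20.5%, 13.8% and 23.7% of all genes. Members called lower in KD against WT numbered 41, and 21 with library totals, against backgrounds of 40.4% and 30.6%. Between the guides, 21 higher and 5 lower became 35 and 3 with library totals and 5 and 2 with only the groups compared. The backgrounds were 13.8% and 13.4%, and 23% and 8.54% with library totals. With the length trend removed 8 were lower, against 15.6%. On leaving out 1 library, 11 to 33 were higher and 5 to 11 lower, against 8.93% to 21.5% and 9.16% to 20.9%. With only the groups compared, 6.83% of all genes were higher and 7.07% lower between the guides. Members higher in KD against KO numbered 36, and 21 with the length trend removed, against backgrounds of 42.9% and 39.1%. Reversed with library totals were, in KD against WT, Setd2 (0.066) and Brd2 (0.11), and, in KD against KO, Smarcc2 (0.18) and Brd2 (0.20). Reversed with the length trend removed were, in KD against WT, Smarcc2 (-0.21), Kdm6b (-0.012), Ezh1 (-0.015) and Arid1a (-0.049), in KD against KO, Kdm4a (-0.044), Ezh1 (-0.00355) and Arid1a (-0.18), and, between the guides, Smarca4 (-0.00133). The causes of these changes were not tested. Replicate numbers did not pair the libraries (correlations of deviations -0.188 to 0.09 over 18 pairs). With a replicate block, KD against WT gave 21 higher and 37 lower members, against backgrounds of 36.1% and 39.6%. KO_sg4 gave 13 and 13, against 15.6% and 20.3%, and KO_sg1 gave 7 and 15, against 14.6% and 20%. KD against KO gave 34 and 34, against 42.2% and 39.8%, and the guides gave 14 and 5, against 10.9% and 11.2%. Depth limits Arid5b, Tet1 and the 5 untested members.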
